A study of Mus musculus with 2 samples.

Results

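The genes described are 10 components of bone morphogenetic protein (BMP) signalling in the newborn mouse bladder. They are the ligands Bmp2, Bmp4, Bmp5 and Bmp7, the receptors Bmpr1a, Bmpr1b and Bmpr2, the antagonists Grem1 and Nog, and the target gene Id1. They were taken by symbol, and all 10 were found by gene identifier among the 43346 mouse genes of the deposited tables. The total RNA, of molecules above 200 nt, came from the whole bladders of 2 littermates of strain B6NCrl, an inbred mouse strain, at postnatal day 0. The pups came from 1 pregnant female, received no treatment named in the labels, had no sex recorded, and gave 1 library each from 10 ng of RNA. Both pups form a single group, so the values describe levels and the difference between pup 2 and pup 1, and no test across animals was possible. Library depth was 32564256 expected counts over mouse genes in pup 2 and 43653536 in pup 1.

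BMPs are secreted dimers of the TGF-beta superfamily. They bind a complex of type I and type II receptor kinases, in which the type II receptor phosphorylates the type I receptor and this phosphorylates the transcription factors SMAD1, SMAD5 and SMAD9. These join SMAD4, enter the nucleus and act on targets such as the Id genes, which encode inhibitors of basic helix-loop-helix factors. Antagonists such as noggin and gremlin bind the ligands outside the cell. In the developing urinary tract, BMP4 is known from mouse genetics as a signal of the mesenchyme around the ureter, where smooth muscle forms.

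Of the 10 genes, 6 had an entry in the RefSeq promoter table (GRCm38.p6, the assembly also called mm10), with 8 start sites among them. Bmp2, Bmp7, Id1 and Nog had no entry. Windows of 250 bases upstream of the RefSeq start are shown 5′ to 3′ for 3 of the 10 genes. They are the highest of the 4 ligands, the gene with the fewest reads and a ligand with few CG dinucleotides. These were shown because the number of CGs did not follow the level of the gene. Capitals mark CG dinucleotides. The Bmp4 window lies at chr14:46390670-46390919 on the minus strand, the Grem1 window at chr2:113758649-113758898 on the minus strand and the Bmp5 window at chr9:75775115-75775364 on the plus strand.
Bmp4: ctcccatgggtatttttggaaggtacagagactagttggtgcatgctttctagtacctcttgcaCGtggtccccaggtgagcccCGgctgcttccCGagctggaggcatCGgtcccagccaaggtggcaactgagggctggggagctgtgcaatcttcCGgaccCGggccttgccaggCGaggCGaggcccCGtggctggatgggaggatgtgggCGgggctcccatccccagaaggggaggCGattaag
Grem1: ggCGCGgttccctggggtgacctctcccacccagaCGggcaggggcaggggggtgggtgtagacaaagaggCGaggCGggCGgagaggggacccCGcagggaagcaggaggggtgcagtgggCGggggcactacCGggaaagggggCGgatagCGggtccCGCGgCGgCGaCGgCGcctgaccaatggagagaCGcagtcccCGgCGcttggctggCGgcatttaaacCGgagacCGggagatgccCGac
Bmp5: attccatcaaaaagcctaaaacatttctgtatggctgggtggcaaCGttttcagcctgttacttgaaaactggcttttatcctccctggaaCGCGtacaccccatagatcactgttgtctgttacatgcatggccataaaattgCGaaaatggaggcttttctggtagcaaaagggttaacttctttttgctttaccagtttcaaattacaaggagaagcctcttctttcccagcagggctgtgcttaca

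The Bmp4 window held 11 CGs, the Grem1 window 24 and the Bmp5 window 4, against a median of 6 over the 32851 windows of the table. Bmpr1a had 36 CGs and Bmpr2 had 22, while the 3 Bmpr1b windows had 5, 5 and 1. As many CGs as in the Grem1 window were found in 12.0% of all windows. The letters GGCGCC, which SMAD1 and SMAD5 are known to bind and which read the same on both strands, occurred once each in the windows of Grem1, Bmpr1a and Bmpr2. They occurred in 9.59% of all windows of this length. These letters include a CG, and the 3 windows were those with the most CGs of the 8. The share was not taken over windows of like CG number. Set against the starts of the leading GENCODE transcripts, the Bmpr2 window lay wholly downstream of the start, beginning 629 nt after it, and the Bmpr1a window had 141 of its 250 bases inside the transcript. The Grem1 window lay upstream. Of the Bmpr1b windows, those with 5 CGs overlapped each other and lay wholly inside the span of the leading transcript. They began 50594 and 50426 nt after its start. The Bmpr1b window with 1 CG lay upstream. A match of letters is a description and not a binding site.

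The newborn bladder contained transcripts of all 4 ligands, all 3 receptors and Id1, but little Nog and almost no Grem1. At 1 TPM (a relative transcript level corrected for length) or more in both pups, 8 of the 10 genes were detected, against 58.5% of all protein-coding genes. By mean TPM the order was Id1, Bmp4, Bmpr1a, Bmp2, Bmp7, Bmp5, Bmpr2, Bmpr1b, Nog and Grem1. The values of the 2 pups did not overlap between neighbours in this order, except that Bmp2, Bmp7 and Bmp5 could not be ordered. These are whole-organ levels, in which fewer cells of a type and less RNA per cell cannot be told apart.

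**Figure D1:**
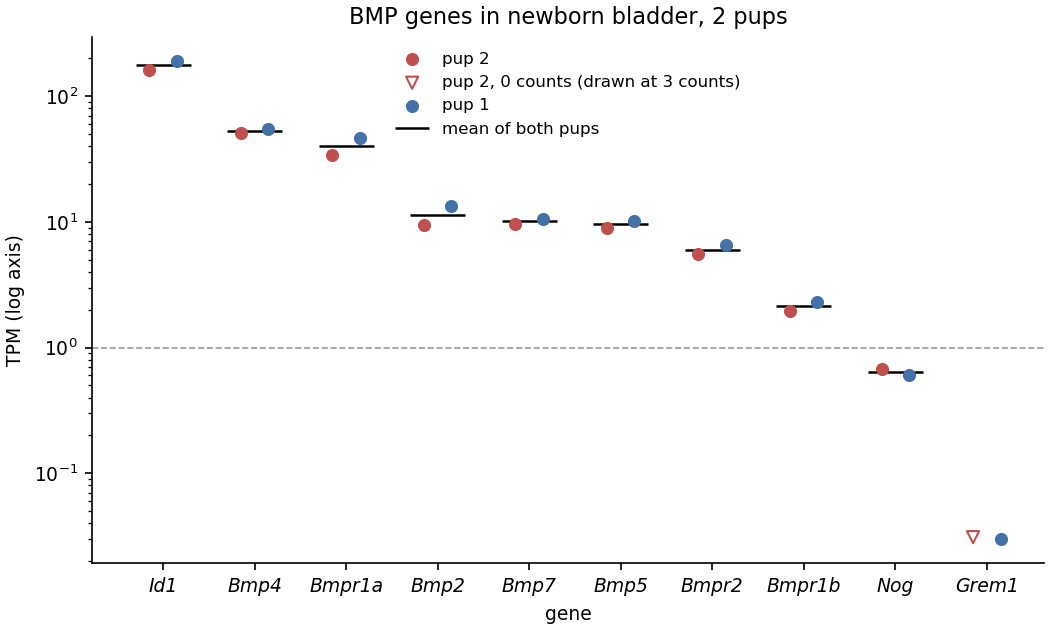
TPM of each of the 10 BMP genes on a log axis, with pup 2 in red, pup 1 in blue and the mean as a black line. The dashed line is 1 TPM, and the open triangle marks Grem1 in pup 2, which had 0 counts and is drawn at the level of 3 counts. Id1 lies highest, Bmp2, Bmp7 and Bmp5 lie close together near 10 TPM, and Nog and Grem1 lie below 1 TPM in both pups.

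Bmp4 was the most abundant of the 4 ligands. The gene lies on chromosome 14 from 46383520 to 46390669 on the minus strand (mm10). Its level was 50.89 TPM in pup 2 and 54.46 TPM in pup 1, on 2234 and 2958 counts. Its mean was 52.7 ± 2.52 TPM (SD, n = 2), and the pups lay close together. It supplied 64.5% of the summed TPM of the 4 ligands in pup 2 and 61.5% in pup 1.

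Bmp2, the closest relative of Bmp4 among these ligands, lies on chromosome 2 from 133552159 to 133562885. Its level was 9.40 TPM in pup 2 and 13.3 TPM in pup 1, on 777 and 1376 counts, with a mean of 11.4 ± 2.76 TPM (SD, n = 2), and pup 2 was the lower of the pair. The ratio of Bmp4 to Bmp2 TPM was 5.41 in pup 2 and 4.09 in pup 1.

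Bmp5 and Bmp7 belong to a second branch of the family, which also holds Bmp6. Bmp7, on chromosome 2 from 172868012 to 172940321, was at 9.72 TPM in pup 2 and 10.64 TPM in pup 1. Bmp5, on chromosome 9 from 75775364 to 75900310, was at 8.90 TPM in pup 2 and 10.19 TPM in pup 1. Bmp7 lay inside the span of Bmp2 over the 2 pups, while Bmp5 lay below that span in pup 2 and inside it in pup 1. Bmp7 made up 12.3% of the 4 ligands in pup 2 and 12.0% in pup 1, and Bmp5 made up 11.3% in pup 2 and 11.5% in pup 1.

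Of the receptors, the type I receptor Bmpr1a was far above the others. It lies on chromosome 14 from 34410734 to 34503341 and had 34.11 TPM in pup 2 and 46.27 TPM in pup 1, on 4588 and 7568 counts. The mean of Bmpr1a was 40.2 ± 8.60 TPM (SD, n = 2), with pup 2 the lower. Bmpr1b, the second type I receptor of BMPs, lies on chromosome 3 from 141837136 to 142169425 and is known for its role in cartilage of the limb. Its level was 1.95 TPM in pup 2 and 2.32 TPM in pup 1. Bmpr1a thus exceeded Bmpr1b 17.5-fold in pup 2 and 19.9-fold in pup 1.

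Bmpr2, the type II receptor that is selective for BMPs, lies on chromosome 1 from 59763400 to 59879014. It had 5.57 TPM in pup 2 and 6.5 TPM in pup 1. Its transcript is long, so these levels rested on 1674 and 2481 counts. Bmpr1a TPM was 6.12 times that of Bmpr2 in pup 2 and 7.12 times in pup 1.

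The antagonists were the lowest of the 10 genes. Nog, which encodes noggin and is a single-exon gene on chromosome 11 from 89300638 to 89302332, had 0.68 TPM in pup 2 and 0.61 TPM in pup 1, on 26 and 29 counts. Grem1, which encodes gremlin 1, lies on chromosome 2 from 113746164 to 113758646 and had 0 counts in pup 2 and 4 counts, or 0.03 TPM, in pup 1. At 0 counts a level of up to 3 counts remains possible, which for Grem1 in pup 2 is 0.0310 TPM, so the pups could not be told apart at this depth. Bmp4 exceeded Nog 74.8-fold by TPM in pup 2 and 89.3-fold in pup 1.

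Id1 was the highest of the 10 genes, at 161.9 TPM in pup 2 and 192.2 TPM in pup 1. Its mean was 177 ± 21.4 TPM (SD, n = 2), with pup 2 the lower. The gene is short, on chromosome 2 from 152736251 to 152737410, and was covered by 3254 and 4843 counts. Among 21474 protein-coding genes it ranked 792 in pup 2 and 703 in pup 1. By the same measure Bmp4 ranked 2439 in pup 2 and 2413 in pup 1, and Bmpr1a 3381 in pup 2 and 2767 in pup 1.

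Between the littermates, none of the 8 genes whose mean count was at least 100 was 1.5-fold apart, against 4.92% of the 12733 genes at that count. Ratios are of pup 2 over pup 1 after scaling with TMM factors. At 1.2-fold, Bmpr1a and Bmp2 were lower in pup 2, or 2 of 8 genes against 12.0% of all genes, and none was higher, against 11.4%. Bmp2 had a log2 ratio of -0.42, with a 95% Clopper-Pearson interval of -0.55 to -0.29 for counting error alone. Of the 5405 genes with a count within a factor of 2 of Bmp2, 5.68% were as far apart or farther. Bmpr1a had a log2 ratio of -0.32 (interval -0.37 to -0.26), and 9.54% of 1907 genes of like count were as far apart.

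The remaining ratios were smaller. Id1 was at -0.17, Bmpr2 at -0.16 and Bmp5 at -0.15, each with a counting interval below equal levels. Bmpr1b, at -0.20, and Bmp4, at -0.00, had intervals that included equal levels. So 5 of 8 genes were lower by their counting interval, against 30.0% of all genes, and none was higher, against 22.3%. Bmp5 was at the margin: scaled by total counts, its upper limit was 0.0018, and 4 of 8 genes were lower, against 27.2% of all genes. A counting interval narrows as the count rises, and the 5 genes had mean counts from 954 for Bmp5 to 6078 for Bmpr1a. The shares of genes lower or higher by their interval were not taken over genes of like count. Whether 5 of 8 exceeds the share at like count was therefore not tested. With Nog included, 7 of 9 genes whose mean count was at least 20 had a ratio below 0, against 52.6% of genes at that count. Bmp4, at -0.00, is among the 7, but it was above 0, at 0.02, when scaled by total counts. The median log2 ratio of the 9 genes was -0.16, against -0.01 over all genes at that count. The intervals leave out all variation other than counting, and the pup cannot be told apart from its dissection and its library.

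**Figure D2:**
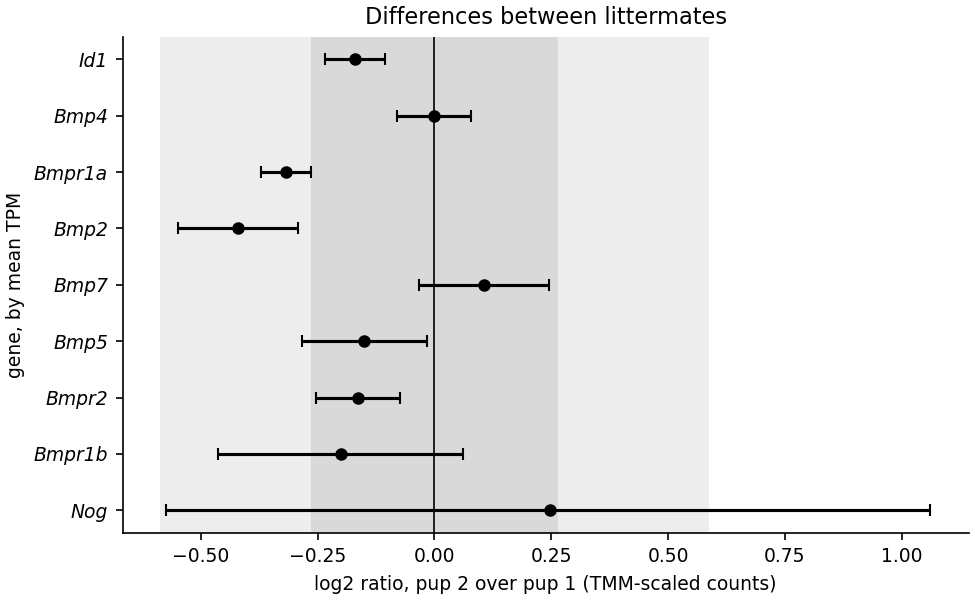
Log2 ratio of pup 2 over pup 1 for the 9 BMP genes whose mean count was at least 20, ordered by mean TPM, with 95% counting intervals as bars. The dark band spans 1.2-fold and the light band 1.5-fold in each direction. Bmp2 at -0.42 and Bmpr1a at -0.32 lie outside the dark band, and the interval of Nog, from -0.58 to 1.06, is the widest.

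Bmp7 had a log2 ratio of 0.11 by scaled counts (interval -0.03 to 0.25), but of -0.13 when 0.1 was added to TPM, so its direction depended on the unit. The length that the authors' estimator gave the gene was 3398 nt in pup 2 and 3061 nt in pup 1, a mean over its long and short transcripts weighted by their shares. For Nog, the ratio of 0.25 rested on 26 and 29 counts, with an interval from -0.58 to 1.06. TPM ratios ran lower than scaled count ratios by a median of 0.08 on the log2 scale over all genes whose mean count was at least 100.

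Markers showed the labelled tissue in both libraries and also where the libraries differed. Summed TPM of 4 smooth muscle genes was 31684 in pup 2 and 34916 in pup 1, and that of 4 uroplakin genes was 5627 in pup 2 and 5881 in pup 1. The 4 cartilage and bone genes summed to 0.84 TPM in pup 2 and 0.94 TPM in pup 1. Blood and immune genes stood higher in pup 2, by at least 1.5-fold in 5 of 5 erythroid, 6 of 6 macrophage and 2 of 2 neutrophil genes. Erythroid genes reached 59101 TPM in pup 2 and 21719 TPM in pup 1, macrophage genes 1766 TPM in pup 2 and 514 TPM in pup 1, and neutrophil genes 369 TPM in pup 2 and 33.5 TPM in pup 1. Liver genes (3) reached 10.4 TPM in pup 2 against 46.1 TPM in pup 1, and 4 proliferation genes to 134 in pup 2 and 191 in pup 1. Endothelial genes (5) reached 148 TPM in pup 2 against 127 TPM in pup 1. Their log2 ratios were 0.45 for Cldn5, 0.49 for Egfl7 and 0.34 for Esam, but 0.00 for Pecam1 and -0.03 for Cdh5. The 4 fibroblast genes reached 7051 TPM in pup 2 and 8108 TPM in pup 1. Col1a1, Col3a1 and Dcn were lower in pup 2, at -0.22, -0.11 and -0.06, whereas Pdgfra was higher, at 0.27. The part of these differences in the lower Bmp2 and Bmpr1a of pup 2 was not tested.

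The division of genes among annotated transcripts differed most in Bmp4, Bmp7 and Bmpr1b. The leading transcript of Bmp4 and a second coding transcript have the same coding exons of 1224 nt. The second starts 119 nt further downstream and lacks a non-coding exon of 125 nt on chromosome 14 from 46387156 to 46387280. Its 3′ end also falls short, at 46383707 against 46383520 for the leading transcript on the minus strand. The second transcript was assigned 290 counts in pup 2, with a posterior SD of 99.5, and 47.7 counts in pup 1, with a posterior SD of 63.5. By TPM this was 15.6% of the gene in pup 2 and 1.91% in pup 1. The split within the gene therefore carried a wide posterior SD, whereas that of the gene total was 0 in both pups.

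Of the 4 retained-intron transcripts with reads, those of the ligands Bmp4 and Bmp7 were assigned fewer in pup 2. The other 2 belong to Bmpr2 and had 7.06 and 1.02 counts in pup 2 and 6.05 and 0 counts in pup 1, too few to compare. That of Bmp4 had 20.6 counts in pup 2, with a posterior SD of 4.36, and 62.6 in pup 1, with a posterior SD of 7.01. That of Bmp7 had 20.7 counts in pup 2, with a posterior SD of 9.38, and 63.5 in pup 1, with a posterior SD of 13.1. Both were more than 1.5-fold lower in pup 2 after scaling, at log2 ratios of -1.20 and -1.21, and so were 13.1% of the 4581 retained-intron transcripts with at least 20 counts on average. The Bmp7 one, of 980 nt, took 10.1% of the gene by TPM in pup 2 and 22.7% in pup 1, and 2.70% of its reads in pup 2 and 6.74% in pup 1. The share of the coding transcript of Bmp7, of 3670 nt, was accordingly 89.9% in pup 2 and 77.4% in pup 1. The median shift of the leading transcript over 6650 genes with several transcripts and at least 500 counts on average was 2.96 percentage points, against 12.55 for Bmp7 and -8.5 for Bmp4. Of these genes, 8% shifted as far as Bmp7 in either direction and 17.0% as far as Bmp4.

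**Figure D3:**
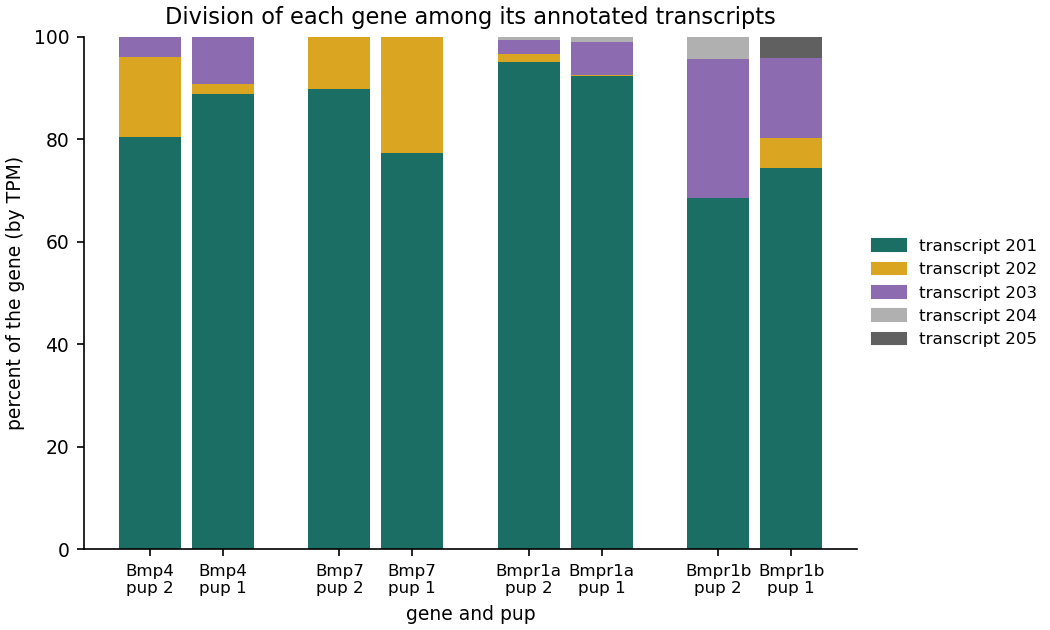
Percent of each gene by TPM assigned to its annotated transcripts, for Bmp4, Bmp7, Bmpr1a and Bmpr1b, with pup 2 left of pup 1 in each pair. Dark green marks the leading coding transcript, the same in both pups for every gene shown, which ranges from 68.5% for Bmpr1b in pup 2 to 95.1% for Bmpr1a in pup 2.

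The receptors were mostly a single transcript each, apart from Bmpr1b. The leading Bmpr1a transcript, of 13 exons and 1596 coding nt, took 95.1% of the gene in pup 2 and 92.3% in pup 1. That of Bmpr2, of 12899 nt, took 97.7% in pup 2 and 99.3% in pup 1. That of Bmpr1b took 68.5% in pup 2 and 74.4% in pup 1. Another Bmpr1b transcript has the same coding exons but starts at 142169425, upstream of the start of the leading one at 141982264 on the minus strand. It took 27.1% in pup 2 and 15.7% in pup 1 with 25.9 counts in pup 2 and 22.4 in pup 1. That of Id1 took 97.7% in pup 2 and 97.0% in pup 1. Bmp2, Nog and Grem1 each have 1 annotated transcript in the files, and the leading Bmp5 transcript took 97.1% in pup 2 and 100% in pup 1.

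Strand use was not given in the sources used here, so reads of a gene and of an overlapping antisense gene could not be separated with certainty. The antisense gene Gm17110, at Bmpr1a, was assigned 60.1 counts in pup 2 and 62.9 in pup 1, and Gm15222, at Bmp4, 14 counts in pup 2 and 11 in pup 1. Gm26903, antisense at Bmp5, was assigned 2.22 counts in pup 2 and 6.89 in pup 1. The protein-coding gene Gm15217, on the opposite strand at Bmp4, was assigned 3 counts in each pup. With the strand setting unknown, these assigned counts set no limit on opposite-strand reads counted under Bmpr1a, Bmp4 or Bmp5.

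The rest of the pathway was described with 57 further genes in 6 roles. At 1 TPM or more in both pups 44 of the 57 were detected, against 58.5% of protein-coding genes. The same 58.5% is the share to set beside the detection count of each role below. Of the 40 whose mean count was at least 100, only Gdf10 was 1.5-fold apart, a share near the 4.92% of all genes at that count. Over the 49 whose mean count was at least 20, the median log2 ratio was -0.01, and 27 were lower in pup 2, a share near the 52.6% of all genes at that count.

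Among the 13 other ligands 5 were detected, a lower share than the 58.5% of protein-coding genes. Bmp3, an atypical BMP that is known to oppose BMP signalling in bone, stood beside Bmp4, at 51.69 TPM in pup 2 and 65.06 TPM in pup 1. The ratio of Bmp3 to Bmp4 TPM was 1.02 in pup 2 and 1.19 in pup 1. Gdf5, best known from developing joints, followed at 12.74 TPM in pup 2 and 14.29 TPM in pup 1. Gdf10, also called Bmp3b, was at 8.26 TPM in pup 2 and 5.54 TPM in pup 1 with a log2 ratio of 0.66 (interval 0.46 to 0.85). Below a mean count of 100, the ligands Gdf9 and Bmp8b were farther apart, and were picked out after their values were seen. Gdf9, with 31 counts in pup 2 and 24 in pup 1, had a log2 ratio of 0.77. Its interval, from -0.04 to 1.61, included equal levels. Bmp8b, with 51.3 counts in pup 2 and 111 in pup 1, was at -0.71 (interval -1.23 to -0.23). Bmp6 was at 2.59 TPM in pup 2 and 2.95 TPM in pup 1, and Gdf3 had 0 counts in both pups. Over all 17 ligands, Bmp4 supplied 32.2% of the summed TPM in pup 2 and 30.2% in pup 1, and Bmp3 supplied 32.7% in pup 2 and 36.1% in pup 1.

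All 4 other receptors were detected. The type I receptor Acvrl1, known from endothelium, was at 18.83 TPM in pup 2 and 19.70 TPM in pup 1, and Acvr1 was at 5.54 TPM in pup 2 and 7.14 TPM in pup 1. The type II receptors Acvr2a and Acvr2b, which also serve activins, were at 4.95 and 3.52 TPM in pup 2 and at 5.53 and 2.69 TPM in pup 1. Bmpr1a therefore made up 56.4% of type I receptor TPM in pup 2 and 61.3% in pup 1. Bmpr2 made up 39.7% of type II receptor TPM in pup 2 and 44.2% in pup 1. The 4 type I receptors summed to 60.4 TPM in pup 2 and 75.4 TPM in pup 1, and the 3 type II receptors to 14.04 TPM in pup 2 and 14.72 TPM in pup 1.

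Of 7 co-receptors and related membrane proteins, 6 were detected. Endoglin, Eng, was at 35.02 TPM in pup 2 and 33.32 TPM in pup 1. The repulsive guidance molecule Rgmb, a BMP co-receptor, was at 16.83 TPM in pup 2 and 16.97 TPM in pup 1, and Tgfbr3, or betaglycan, was at 16.40 TPM in pup 2 and 17.00 TPM in pup 1. Bambi, a receptor-like protein without a kinase, was at 11.53 TPM in both pups. Hfe2, which encodes hemojuvelin, was lowest, on 1 count in pup 2 and 2 in pup 1.

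Extracellular modulators other than Grem1 and Nog were abundant, and 15 of 18 were detected. Fstl1, a follistatin-like protein, was at 443 TPM in pup 2 and 567 TPM in pup 1. Nbl1, a relative of gremlin that binds BMPs, was at 91.76 TPM in pup 2 and 88.65 TPM in pup 1. Fstl3 was at 61.01 TPM in pup 2 and 76.83 TPM in pup 1, and Twsg1, which acts with chordin, at 54.60 TPM in pup 2 and 64.31 TPM in pup 1. Cer1, which encodes cerberus, had 0 counts in both pups.

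Of 8 SMADs and regulators 7 were detected. Smad1 was the leading receptor-activated SMAD of the BMP branch, at 27.30 TPM in pup 2 and 33.49 TPM in pup 1, which was 75.6% of the summed TPM of Smad1, Smad5 and Smad9 in pup 2 and 76.4% in pup 1. Smad4, the shared partner, was at 15.14 TPM in pup 2 and 14.44 TPM in pup 1. Smurf1, a ubiquitin ligase that acts on SMADs, was at 10.00 TPM in pup 2 and 10.90 TPM in pup 1. Smad5 was at 8.26 TPM in pup 2 and 9.67 TPM in pup 1. Smad9 was lowest, at 0.55 TPM in pup 2 and 0.70 TPM in pup 1.

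All 7 other targets were detected. Id2 was at 403.5 TPM in pup 2 and 413.4 TPM in pup 1, Id3 at 201.5 TPM in pup 2 and 206.2 TPM in pup 1, and Id4 at 64.47 TPM in pup 2 and 84.88 TPM in pup 1. Id1 was therefore the third of the 4 Id genes in both pups, with 19.5% of their summed TPM in pup 2 and 21.4% in pup 1. The homeobox gene Msx2 was at 19.74 TPM in pup 2 and 26.92 TPM in pup 1, and its relative Msx1 was lowest, at 1.02 TPM in both pups. These genes also respond to signals other than BMPs, so their levels are not a measure of BMP activity alone.

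**Figure D4:**
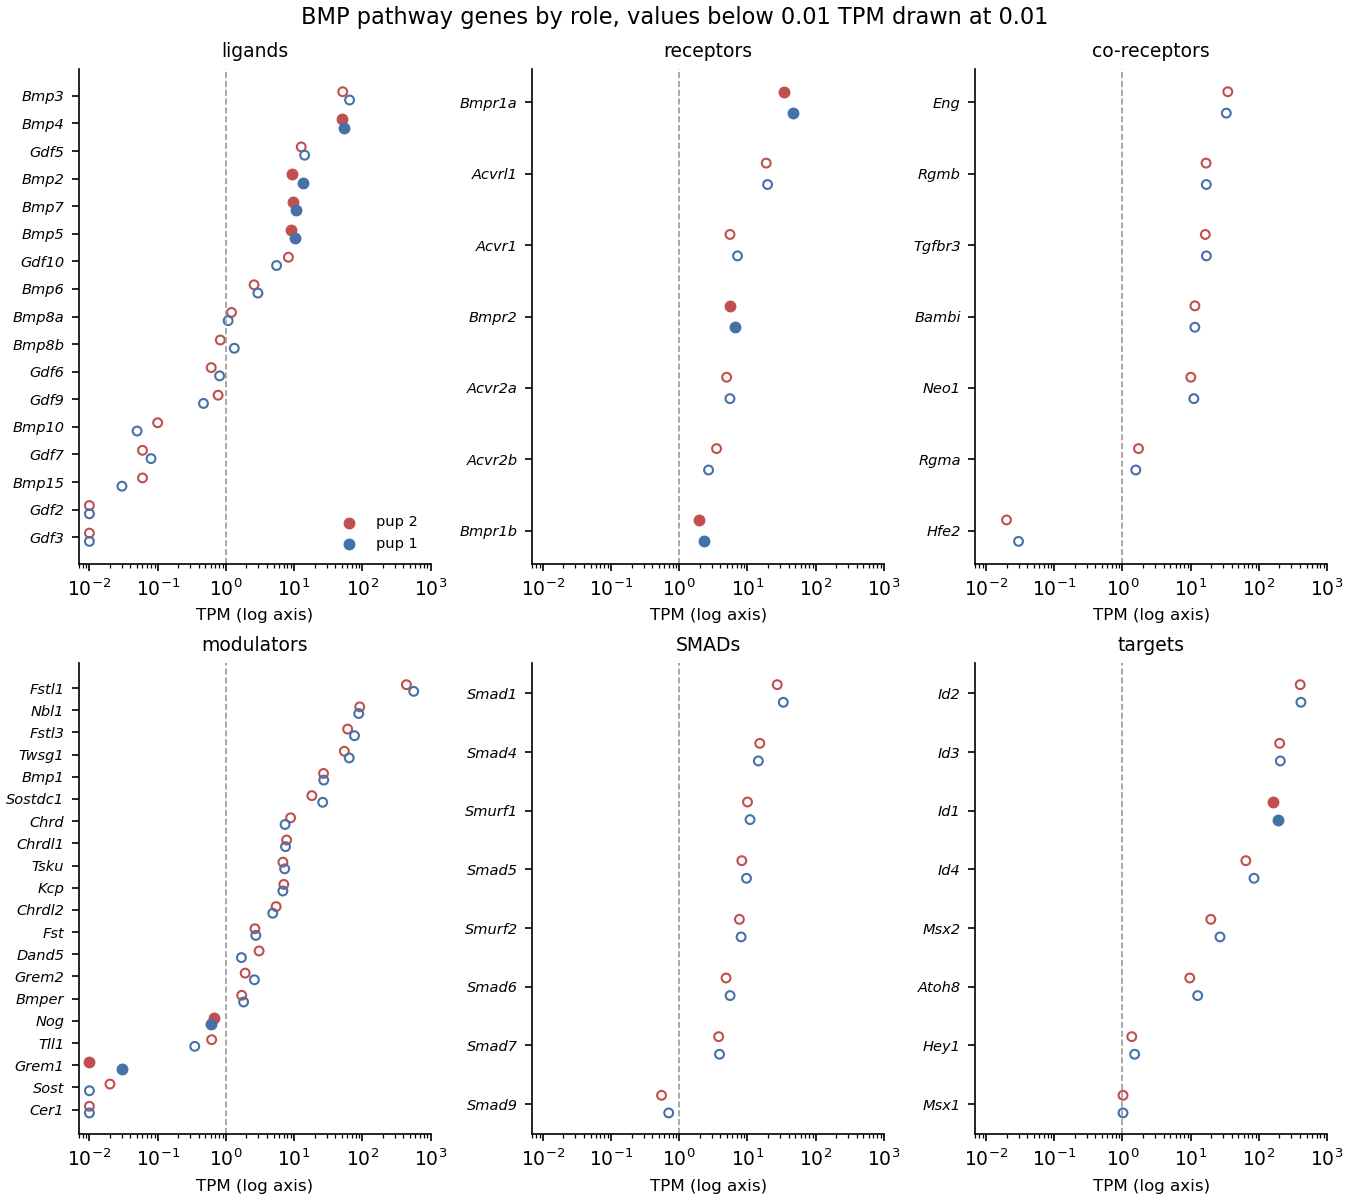
TPM on a log axis for 67 BMP pathway genes in 6 panels by role, with pup 2 in red above pup 1 in blue, filled for the 10 genes described first and open for the others. The dashed line is 1 TPM, and values below 0.01 TPM are drawn at 0.01. Bmp3 lies beside Bmp4, Bmpr1a leads the receptors, and Nog and Grem1 lie below most other modulators.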

How the data were processed

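Total RNA-seq of whole bladder from 2 newborn littermates was analysed, with 1 library per pup. The authors deposited gene and transcript tables in the layout of the RSEM estimator for the mm10 assembly and GENCODE M4, as the listing deposited with each sample says. Which aligner, versions and strand setting served is not given in the sources used here. In the deposited tables, expected counts are estimated and not normalised, with multi-mapped reads divided by the authors' estimator. The deposited TPM values are scaled over all entries of a file, spike-ins included. The deposited percent of each gene per transcript is by TPM, and the deposited posterior SD of each count is in reads.

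Names and coordinates came from GENCODE M21, on the same assembly, by identifier (42462 genes matched, 884 not). Expected counts were rounded and scaled with TMM factors over all mouse genes (edgeR 4.0.16, R 4.3.3). With 1 library per pup no test could be fitted, so genes with 100 or more counts on average were described by fold, with 95% Clopper-Pearson intervals. These intervals and the limit of 3 counts cover counting error only, since copies made by PCR are not told apart. Alternatives were DESeq2 1.42.0 size factors, total counts, TPM with 0.1 or 1 added, posterior means, other thresholds and single pups. The ratio step was tested on simulated counts with known folds in some genes and equal mean shares in the others. The simulation held no shift like that of the blood and immune genes, so it does not test the scaling under such a shift. Python 3.11.15, pandas 2.3.3, numpy 2.4.6 and scipy 1.17.1 were used.

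Genes, lists and rules were chosen with earlier results of these data known. The text names the 10 genes and, of each further list, the 4 highest, the lowest and any gene 1.5-fold apart with 100 or more counts on average. The genes Gdf9, Bmp8b, Dand5 and Tll1 and the promoter windows were chosen after values were seen. So were the overlapping genes Gm17110, Gm15222, Gm15217 and Gm26903.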

Additional observations from a re-analysis of the deposited data

How the results depend on the processing

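Detection in both pups held for 8 of the 10 genes at 1 TPM, 9 at 0.5 TPM and 7 at 2 TPM, and the count was 8 in each single pup. The summed level of the 10 genes was 309.8 TPM, and 350.0 TPM when TPM was rescaled over protein-coding genes. The median log2 ratio of pup 2 over pup 1 lay between -0.22 and -0.14 under 6 alternatives, against -0.16. None of the 8 genes with 100 or more counts on average was 1.5-fold apart under DESeq2 or total-count scaling or 2-fold apart, and 2 were 1.2-fold apart. Nor was Nog at a minimum of 20 counts, while Grem1 had no ratio. In alternatives chosen after seeing the data, the number of genes lower by their counting interval was 5 with DESeq2 factors and with filtered TMM factors, and 4 with total counts. The median share of the leading transcript was 97.3%, against 96.6% by posterior means, and 97.0% to 97.1% in single pups. Among single genes, the log2 ratio of Bmp7 ranged from -0.13 to 0.12 and that of Bmp4 from -0.10 to 0.02. Their directions differed between TPM and scaled counts for Bmp7, and among scalings for Bmp4. Bmp2 stayed between -0.50 and -0.40 and Bmpr1a between -0.44 and -0.30. Of the 57 further genes 47 were detected at 0.5 TPM and 37 at 2 TPM. The shares of all protein-coding genes at 0.5 TPM and at 2 TPM were not taken. Without 1 pup no ratio exists, so the ratios have no such alternative. Depth limits Nog, Grem1 and the minor transcripts. No paired analysis was possible because both pups belong to 1 group.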
